A study of Canis lupus familiaris with 26 samples.

Results

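The transcripts of 5 genes that supply a luteal cell with sterol and fatty acid, SQLE, FDFT1, DHCR7, ACLY and FADS1, were followed in 26 corpora lutea (CL) of dogs. They were chosen by name as enzymes of these supply routes, with earlier results of these data known. They are 5 of the 19856 Ensembl genes counted in each sample. The symbols of the 5 genes came from the study's gene lists, which were picked from these same samples. The shares of all genes given beside the 5 are therefore a description, not a comparison with genes picked without regard to the data. Their identifiers were ENSCAFG00000001056 (SQLE), ENSCAFG00000007948 (FDFT1), ENSCAFG00000010424 (DHCR7), ENSCAFG00000015818 (ACLY) and ENSCAFG00000025083 (FADS1).

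A luteal cell makes progesterone from cholesterol, which it takes up from lipoproteins, releases from stored esters or makes itself from acetyl-CoA. ACLY, ATP citrate lyase, cleaves citrate to give the cytosolic acetyl-CoA from which both sterols and fatty acids are built. FDFT1, squalene synthase, takes the first step that leads only to sterols, SQLE, squalene epoxidase, oxidises squalene, and DHCR7 reduces the last intermediate to cholesterol. FADS1, the delta-5 desaturase, makes arachidonic acid, the fatty acid from which cyclooxygenases form prostaglandins. In mammalian cells, the genes of sterol synthesis are known as a set that is switched on by SREBP transcription factors when membrane cholesterol is low.

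The dogs were adult bitches of mixed breed and differing ages, each assigned to a day and a treatment. Treated dogs received firocoxib (Previcox), an inhibitor of the prostaglandin synthase COX2 (PTGS2), orally at 10 mg/kg each day from ovulation, and control dogs received a placebo by the treatment protocol (the design text calls them untreated). The ovaries were removed on day 5 (4 control and 4 treated dogs), day 10, day 20 or day 30 (3 control and 3 treated dogs each), and the CL were trimmed from the surrounding tissue. Days 5 and 10 are the early CL and days 20 and 30 the mature CL.

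Sequencing gave between 12831896 and 22658950 reads counted to genes per sample, and the lowest value of any of the 5 genes rested on 140 reads (DHCR7). Of the luteal markers with an identifier, LHCGR, the LH receptor, PRLR, the prolactin receptor, and CYP19A1, aromatase, had reads in 26 of 26 samples, which goes with the labelled tissue. No pair of samples of the same group agreed within sampling noise. One library, day 20 treated replicate 3, stood apart: it had the lowest level of the 26 samples for 5 of the 5 genes and for 10 of 11 genes of cholesterol synthesis, against 13.5% of all 14171 genes with enough reads. In it the summed endothelial markers (245 CPM, next lowest 506 CPM) and the sum of FSHR and INHA (283 CPM, next lowest 665 CPM) were also the lowest. The oocyte markers (258 CPM) were the highest. LHCGR and PRLR together (245 CPM) ranked 12 of 26 from the lowest, with LHCGR alone (120.5 CPM) the highest. The steroidogenic genes FDX1 (38.5 CPM, next lowest 666 CPM) and NR5A2 (47.4 CPM, next lowest 54 CPM) were the lowest, and CYP19A1 (114 CPM) ranked 4 from the lowest. The part of these in its low levels was not tested. The main edgeR tests of the 5 genes that include this library are given with and without it, and the permutation and DESeq2 tests only with it.

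Levels are given as CPM, reads set against library size after one TMM scaling of all samples, and are compared for each gene between samples only, since CPM is not a level per length. Samples are named by their replicate number within a group.

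ACLY stands before the branch between sterols and fatty acids. On day 5 the control samples 1, 3, 4 and 5 had 434, 376, 683 and 661 CPM of ACLY, and the treated samples 1, 2, 4 and 5 had 463, 353, 771 and 540.2 CPM. On day 10 the controls 2, 3 and 4 had 744, 404 and 479 CPM of ACLY, and the treated samples 1, 4 and 5 had 1307, 1177 and 1235 CPM. On day 5 the arms overlapped completely, and on day 10 each treated sample was above each control. On day 20 the controls 1, 2 and 3 had 751, 1901 and 2643 CPM of ACLY, and the treated samples 2, 3 and 4 had 1162, 84.4 and 1034 CPM. On day 30 the controls 2, 3 and 4 had 1365, 2585 and 2649 CPM of ACLY, and the treated samples 2, 4 and 5 had 1376, 347 and 447 CPM. In the mature CL, most controls were high and most treated samples low, but the lowest control of each day lay under the highest treated sample.

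FDFT1, the enzyme at the entry to the sterol branch, had 125, 119, 229 and 360.4 CPM in the day 5 controls and 182, 119.7, 374 and 109.6 CPM in the day 5 treated samples, in the same order of replicates. The day 10 controls had 401, 202 and 196 CPM of FDFT1 and the treated samples 795, 518 and 381 CPM. On day 10 the treated samples were high, but the lowest of them lay just under the highest control. The day 20 controls had 403, 967 and 619.6 CPM of FDFT1 and the treated samples 723, 37 and 540.2 CPM. The day 30 controls had 615, 1178 and 925 CPM of FDFT1 and the treated samples 663, 127 and 319 CPM. The arms overlapped on days 20 and 30, with a treated sample above the lowest control on each day.

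SQLE, which acts on the product of FDFT1, had 116, 104, 199 and 439 CPM in the day 5 controls and 123, 129.9, 358 and 119.7 CPM in the day 5 treated samples. The day 10 controls had 397, 224 and 179.7 CPM of SQLE and the treated samples 725, 657 and 395 CPM. As for FDFT1, the lowest treated sample of day 10 lay just under the highest control. The day 20 controls had 265, 1015 and 602 CPM of SQLE and the treated samples 279, 10.6 and 426 CPM. The day 30 controls had 446, 916 and 835 CPM of SQLE and the treated samples 338, 60.3 and 209 CPM. On day 30 each treated sample was below each control, and on day 20 the arms overlapped.

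DHCR7 completes the cholesterol molecule. The day 5 controls had 55.3, 37, 96.4 and 151 CPM of DHCR7 and the treated samples 161, 48.6, 168 and 76.3 CPM. The day 10 controls had 159.8, 96.7 and 67.8 CPM of DHCR7 and the treated samples 409, 175 and 123 CPM. A single treated sample, replicate 1, was far above the rest of day 10. The day 20 controls had 88.8, 140.1 and 220.1 CPM of DHCR7 and the treated samples 259.7, 6.75 and 134 CPM. The day 30 controls had 302, 211 and 254 CPM of DHCR7 and the treated samples 187, 66.8 and 92.7 CPM. On day 20 the treated samples held both the highest and the lowest value of the day, and on day 30 they were all below the controls.

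FADS1, the desaturase on the route to arachidonic acid, had 178, 195, 194 and 245 CPM in the day 5 controls and 201, 159.9, 372 and 296 CPM in the day 5 treated samples. The day 10 controls had 433, 250.5 and 216 CPM of FADS1 and the treated samples 424, 513 and 245 CPM. In the early CL the arms overlapped on both days. The day 20 controls had 215, 416 and 466 CPM of FADS1 and the treated samples 250.5, 13.4 and 256 CPM. The day 30 controls had 478, 691 and 547 CPM of FADS1 and the treated samples 217, 191 and 129 CPM. On day 30 the highest treated sample had less than the lowest control by a wide margin.

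**Figure D1:**
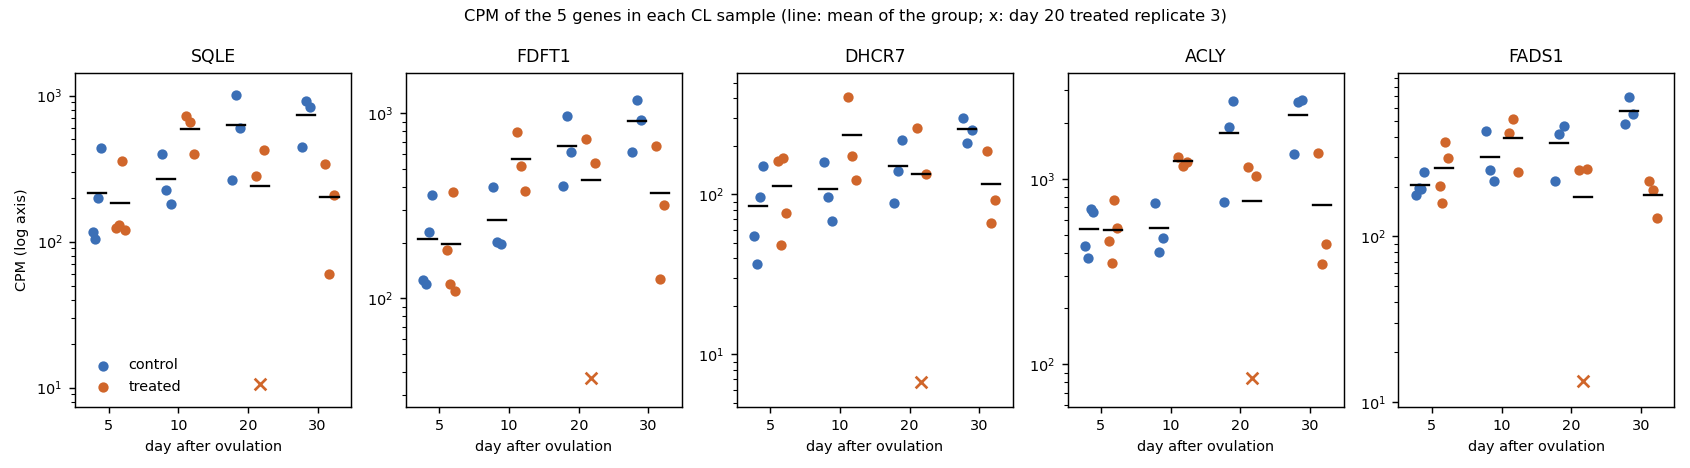
CPM on a log axis against the day after ovulation, a panel for each gene, with 1 point for each CL sample (blue control, orange treated) and a line at the mean of each group. The cross is day 20 treated replicate 3, the lowest sample of each panel (10.6 CPM for SQLE, 37 for FDFT1, 6.75 for DHCR7, 84.4 for ACLY and 13.4 for FADS1).

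By group mean, day 30 controls had the highest level of each of the 5 genes. They had 2199.6 ± 723 CPM of ACLY, 906 ± 282 of FDFT1, 733 ± 251 of SQLE, 255 ± 45.3 of DHCR7 and 572 ± 108 of FADS1 (SD, n = 3). Day 10 treated or day 20 control samples came next for each gene, and a day 5 group had the lowest mean of each gene except FADS1, whose lowest means were those of the mature treated samples, 179 ± 45 CPM on day 30 and 173 ± 139 CPM on day 20 (SD, n = 3). Of the steps between neighbouring groups in these orders, the step of ACLY from day 10 treated (1239.9 ± 65.1 CPM) to day 20 treated (760.2 ± 589 CPM) was the single one at which the samples of neighbouring groups did not overlap.

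The first comparison asked how the genes differed between the mature and the early CL of control dogs, days 20+30 over days 5+10. All 5 genes were higher in the mature CL and passed both thresholds, P under 0.01 and FDR under 0.1, when edgeR (quasi-likelihood) was fitted to the 13 controls and FDR was taken over all 13503 genes tested. Of all these genes 10.1% were called higher, and the median gene had a log2 fold change of 0.02. Since the 5 genes were matched through gene lists that the study made from these samples, their calls are not independent evidence of a rise. A CL sample is a mixture of cells, so more RNA per luteal cell and more luteal cells in the sample cannot be told apart. Markers of other cells also differed between these stages. Of 4 endothelial markers CDH5 (1.02) and KDR (0.89) were called higher. COL1A1 (-1.86), LUM (-1.58) and DCN (-1.10) of 5 fibroblast and mural markers, both leukocyte markers, CD68 (-1.84) and AIF1 (-1.35), ZP3 and GDF9 of 5 oocyte markers, and INHA (-1.62) of 2 granulosa markers were called lower. Without a call, PECAM1 (-0.24), the mural marker RGS5 (0.69) and the granulosa marker FSHR (0.70) had the opposite sign to those called in their lists. The remaining markers had the same sign as those called. The part of other cells in the levels of the 5 genes was not tested.

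ACLY had between 376 and 744 CPM in the 7 early controls, with a median of 479, and between 751 and 2649 CPM in the 6 mature controls, with a median of 2243. The groups did not overlap, by a margin of a few CPM, and the log2 fold change was 1.87 (SE 0.28, edgeR FDR 0.000847). FDFT1 had between 119 and 401 CPM with a median of 202 in early controls and between 403 and 1178 with a median of 772 in mature controls. These groups touched without overlap, and the log2 fold change of FDFT1 was 1.74 (SE 0.31, edgeR FDR 0.00239). Of all genes, 3.7% were higher in the mature CL without overlap.

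SQLE had between 104 and 439 CPM (median 199) in early and between 265 and 1015 CPM (median 718) in mature controls. The groups overlapped at the day 20 control replicate 1 and the log2 fold change was 1.51 (SE 0.38, edgeR FDR 0.0126). DHCR7 ranged from 37 to 159.8 CPM (median 96.4) in early and from 88.8 to 302 CPM (median 216) in mature controls, a log2 fold change of 1.09 (SE 0.34, edgeR FDR 0.0336). FADS1 ranged from 178 to 433 CPM (median 216) in early and from 215 to 691 CPM (median 472) in mature controls, a log2 fold change of 0.93 (SE 0.25, edgeR FDR 0.0188). The call of DHCR7 was the least firm: P moved to between 0.0102 and 0.0165, which ended the call, on leaving out any of 7 of the 13 controls (day 5 replicate 1 or 4, day 10 replicate 4, day 20 replicate 3 and day 30 replicate 2, 3 or 4). In a fit of all 26 samples, whose spread includes the treated dogs, only ACLY (edgeR FDR 0.0106) and FDFT1 (edgeR FDR 0.0354) were called.

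The same comparison in treated dogs gave no call. From 7 early to 6 mature treated samples the log2 fold change was -0.16 (SE 0.52) for ACLY, 0.20 (SE 0.60) for FDFT1, -0.69 (SE 0.66) for SQLE, -0.40 (SE 0.60) for DHCR7 and -0.82 (SE 0.48) for FADS1, and 0 of the 5 genes were called in edgeR, against 4.65% of the 13747 genes tested. None of the 5 had P under 0.05, where 19.6% of all genes did, and none was among the 11.8% of genes called by DESeq2. The mature treated samples ranged from 84.4 to 1376 CPM of ACLY, across the whole range of the early treated samples from 353 to 1307 CPM. Without day 20 treated replicate 3 the values were 0.08, 0.44, -0.44, -0.15 and -0.58 in the same order, with 0 genes called.

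Whether the 2 changes differ was tested as a difference between treated and control dogs in a fit of the 8 groups, which uses the same 26 samples as the comparisons before and after it. The change over time was lower in treated dogs for each of the 5 genes, by a log2 difference of -2.0 for ACLY (SE 0.62, 95% interval -3.27 to -0.72) and -1.74 for FADS1 (SE 0.58, -2.94 to -0.55). SQLE had -2.08 (SE 0.79, -3.73 to -0.44), FDFT1 -1.45 (SE 0.70, -2.90 to -0.01) and DHCR7 -1.43 (SE 0.74, -2.96 to 0.11) in the same edgeR fit. The 4 genes other than DHCR7 had P under 0.05. None passed the FDR threshold (edgeR FDR 0.289 to 0.678), nor did any of the 14171 genes, of which 3.3% were lower in treated dogs with P under 0.05. DESeq2 called 192 genes here (1.35%), ACLY among them (DESeq2 FDR 0.0785). Since the 5 genes were matched through lists made from these samples, these values are not independent evidence of a difference. In the same contrast 4 of 4 endothelial markers were negative, with a median of -1.09 and P under 0.05 for 3. The 5 oocyte markers were all positive with P under 0.05 and a median of 6.34. Without day 20 treated replicate 3 the endothelial values were -0.61 to -1.12, with edgeR P from 0.0587 to 0.179. The oocyte values were then 3.21 to 7.56, with edgeR P from 0.00109 to 0.0245. The part of these cells was not tested. Without day 20 treated replicate 3 the differences were smaller, from -1.14 (DHCR7) to -1.81 (SQLE), and again none was called (edgeR FDR 0.372 to 0.943).

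**Figure D2:**
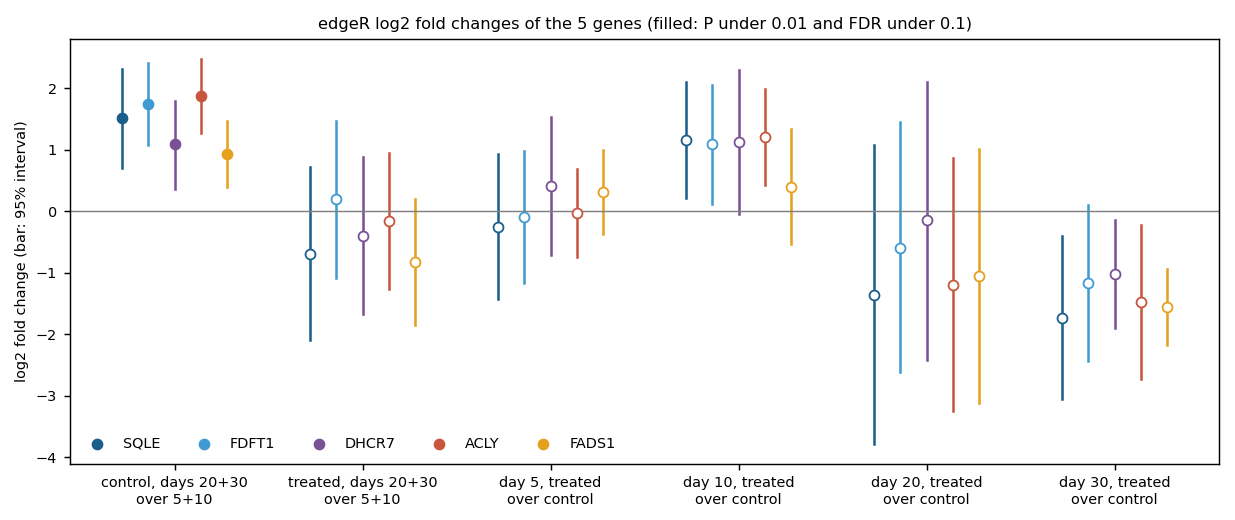
Log2 fold change of each gene in 6 comparisons by edgeR, with bars for the 95% interval and filled points for genes with P under 0.01 and FDR under 0.1. The 5 filled points are those of maturation in control dogs, from 0.93 (FADS1) to 1.87 (ACLY), and the widest bars are those of day 20.

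The treated samples were then compared with the controls of the same day. On day 5 the log2 fold changes lay near 0, from -0.25 for SQLE to 0.41 for DHCR7, each with an interval that held 0 in edgeR. Neither any of the 5 nor any of the 13651 genes was called (0%), though 11.8% of all genes had P under 0.05 and DESeq2 called 100 (0.733%), none of the 5 among them. The intervals were wide, from -1.43 to 0.93 for SQLE and from -0.75 to 0.69 for ACLY with 4 dogs an arm.

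On day 10 all 5 genes were higher in the treated samples by their estimates, from 2.13-fold (FDFT1) to 2.3-fold (ACLY) for the 4 enzymes of sterol supply and 1.32-fold for FADS1. The log2 fold change was 1.20 for ACLY (SE 0.35, 95% interval 0.42 to 1.98), 1.16 for SQLE (SE 0.42, 0.22 to 2.10) and 1.09 for FDFT1 (SE 0.43, 0.12 to 2.06). It was 1.13 for DHCR7 (SE 0.52, -0.04 to 2.29) and 0.40 for FADS1 (SE 0.42, -0.53 to 1.34), whose intervals held 0. ACLY, SQLE and FDFT1, with P under 0.05, stood against 0.373% of all 13416 genes higher at that level, and the 4 sterol enzymes lay between percentiles 98.9 and 99.1 of the log2 fold changes of all genes. ACLY, with no overlap between the arms, was among 2.08% of genes that were higher in each treated sample. None of the 5 was called, with an edgeR FDR of 1 for each, and neither edgeR nor DESeq2 called any gene on this day (0%). The value of DHCR7 rested in large part on 1 dog: without treated replicate 1 its log2 fold change was 0.46, and for the other genes leaving out 1 dog gave between 0.76 and 1.57 for the sterol enzymes and between 0.13 and 0.77 for FADS1.

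On day 20 the 5 genes were again without a call, in a comparison in which edgeR called 14 of 13726 genes (0.102%). The log2 fold changes were -1.36 for SQLE, -1.20 for ACLY, -1.05 for FADS1, -0.59 for FDFT1 and -0.15 for DHCR7, with SE of 0.89 to 1.06 in edgeR. None of the 5 had P under 0.05, where 17% of all genes did, or was among the 10.8% of genes called by DESeq2. The intervals reached from -3.79 to 1.07 for SQLE, wide enough to hold a fall and a rise. The intervals were wider with replicate 3, which had 10.6 CPM of SQLE next to 279 and 426 CPM. Without it the log2 fold changes were -0.80 (SQLE), -0.67 (ACLY), -0.51 (FADS1), -0.05 (FDFT1) and 0.40 (DHCR7) (edgeR FDR 0.412 to 0.951). The SE were then 0.47 to 0.61, still too large to tell a fall from a rise.

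Other tissue markers differed on this day too. The 5 oocyte markers ZP2, ZP3, ZP4, GDF9 and BMP15 summed to 148 to 258 CPM in the 3 treated samples and to 4.57 to 9.14 CPM in controls, with 4 of 5 called higher in edgeR. Of the granulosa markers, FSHR averaged 475 CPM in treated samples and 2017 CPM in controls (log2 fold change -2.05, DESeq2 FDR 0.000954), and INHA 140.2 and 111 CPM (0.35, SE 0.90). The 2 matched luteal receptors differed. PRLR averaged 131 CPM in treated samples and 343 CPM in controls (-1.34, edgeR FDR 0.195, DESeq2 FDR 0.0202), where DESeq2 called 10.8% of all genes. LHCGR averaged 64.8 and 65.7 CPM (0.04). Without replicate 3 the log2 fold changes were -1.31 for PRLR and -0.78 (SE 0.76) for LHCGR. The part of other cells in the day 20 values was not tested.

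On day 30 all 5 genes were lower in the treated samples by their estimates, at 0.301 of the control level for SQLE, 0.339 for FADS1, 0.359 for ACLY, 0.445 for FDFT1 and 0.492 for DHCR7. FADS1 had a mean of 572 CPM in controls and 179 CPM in treated samples, a log2 fold change of -1.56 (SE 0.27, edgeR FDR 0.599), with a 95% interval from -2.18 to -0.94. SQLE had -1.73 (SE 0.58, -3.06 to -0.40), ACLY -1.48 (SE 0.55, -2.73 to -0.22), DHCR7 -1.02 (SE 0.38, -1.90 to -0.14) and FDFT1 -1.17 (SE 0.55, -2.43 to 0.10). The interval held 0 for FDFT1 alone, and the other 4 had P under 0.05. In edgeR none was called, nor was any of the 13196 genes (0%), of which 2.62% were lower with P under 0.05. DESeq2 on the same genes called 116 genes (0.879%), among them FADS1 (DESeq2 FDR 9.16e-05) and SQLE (DESeq2 FDR 0.0949). The arms did not overlap for SQLE, DHCR7 and FADS1, against 9.11% of all genes lower without overlap. The gene lists through which the 5 were matched include the study's treatment comparisons of these samples. Their P values, calls and lack of overlap on day 30 are thus not independent evidence of a fall. Leaving out 1 dog gave between -1.37 and -1.80 for FADS1 and between -0.84 and -2.44 for the others, with the value farthest from 0 without treated replicate 2 for each gene, and the value closest to 0 without treated replicate 4 for SQLE, FDFT1 and DHCR7 and without treated replicate 5 for ACLY and FADS1.

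The endothelial markers PECAM1, CDH5, VWF and KDR were also lower on day 30. They summed to 506 to 1008 CPM in the treated samples and 1415 to 1721 CPM in the controls. Their log2 fold changes lay between -0.88 and -1.29, and 4 of 4 had P under 0.05 with no overlap. LHCGR and PRLR, the luteal receptors, had log2 fold changes of 0.41 (SE 0.40) and 0.19 (SE 0.22) and overlapped between the arms. The part of the vessel content of a sample in the lower levels of the 5 genes was not tested.

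The estimates had opposite signs on days 10 and 30, and the difference between them was tested after the values had been seen. In the fit of the 8 groups it was -3.01 (SE 1.17) for SQLE, -2.80 (SE 0.91) for ACLY, -2.38 (SE 1.03) for FDFT1, -2.27 (SE 1.09) for DHCR7 and -2.07 (SE 0.84) for FADS1 in edgeR. All 5 had P under 0.05, against 2.78% of all 14171 genes in this direction, and none was called, with an edgeR FDR of 0.998 for each. Without day 20 treated replicate 3, which enters this fit through the spread, they ranged from -2.07 (FADS1) to -3.02 (SQLE), with an edgeR FDR of 0.787 to 0.921. Since the pair of days was picked for this difference, this is a description. Between days 30 and 20 the same difference was -0.39 to -0.98, with no call and with none at P under 0.05, as 8.22% of all genes were in this direction. Leaving out day 20 treated replicate 3, it was -0.90 (ACLY) to -1.52 (DHCR7), with P under 0.05 for FADS1 (-1.12) and no call (edgeR FDR 0.297 to 0.508).

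Within the groups the 5 genes varied together from dog to dog. After the mean of its group was taken from each log2 CPM, 16 of the 26 samples had all 5 genes on the same side of the group mean. The lowest sample was day 20 treated replicate 3, at -2.9 log2 units in the mean of the 5 genes, followed by day 20 control replicate 1 at -0.813 and day 30 treated replicate 4 at -0.794. The highest were the other dogs of the day 20 treated group, at 1.54 and 1.36, whose group mean replicate 3 had lowered, and day 30 treated replicate 2 at 0.909.

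**Figure D3:**
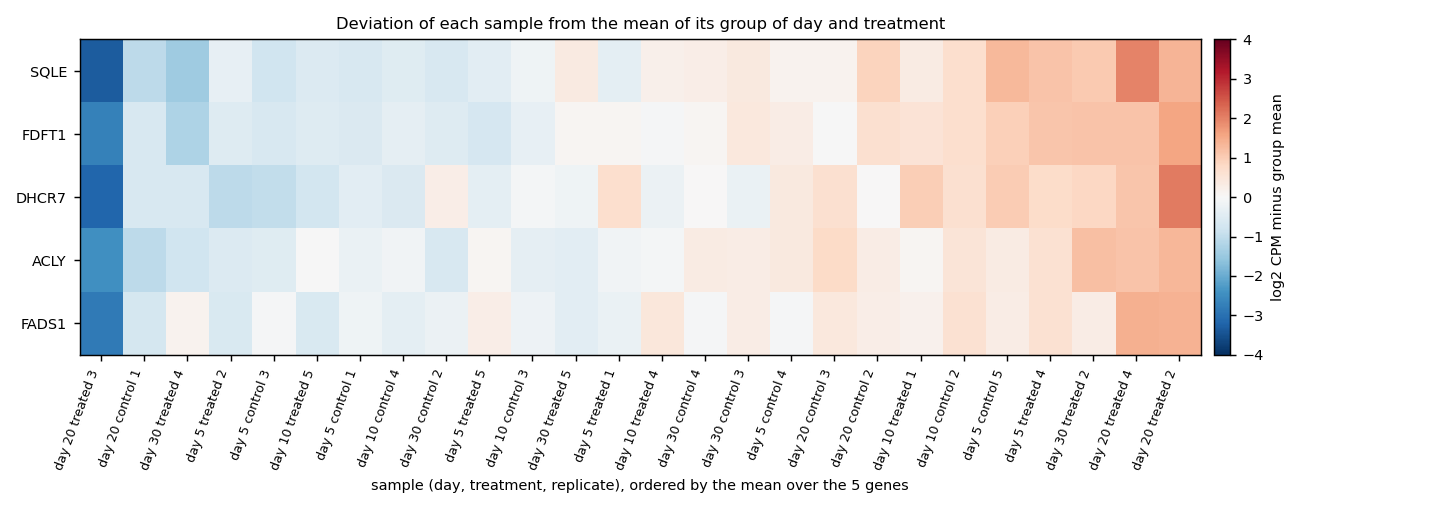
Log2 CPM minus the mean of the group (colour, red above and blue below) for the 5 genes in rows and the 26 samples in columns, ordered by the mean over the 5 genes. Columns tend to have a single colour, with day 20 treated replicate 3 at the far left between -3.34 and -2.47.

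Over the 26 samples, Pearson's r of these deviations ranged from 0.834 (FDFT1 and FADS1) to 0.969 (SQLE and FDFT1) in the 10 pairs, with a median of 0.873, where the median over all pairs of 14171 genes was 0.00699 and 4.36% of pairs were at 0.834 or above. Spearman's rho ranged from 0.679 to 0.956. In a two-sided permutation test within groups with 100000 resamples, P was from 1e-05, the smallest these resamples give, to 0.00284 for r and from 1e-05 to 0.00451 for rho. Adjusted over the 10 pairs, r had values from 0.0001 to 0.00284 and rho from 0.0001 to 0.00451.

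The correlations were lower without the single low library, and the permutation test and the values over all pairs were not repeated without it. Without day 20 treated replicate 3, r was 0.93 for SQLE and FDFT1, the consecutive enzymes, between 0.571 and 0.791 for the other pairs with FDFT1, and 0.56 for DHCR7 and FADS1, the lowest. Without the 2 samples farthest from the median of the first gene of a pair, r lay between 0.637 and 0.958. Among the 14 early samples alone r was between 0.602 and 0.942, and among the 12 mature samples between 0.882 and 0.979, with the low library included.

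The genes whose deviations were most like those of the 5 were mostly other enzymes of sterol synthesis, among 4347 genes with a symbol. ACAT2, which joins acetyl-CoA units at the start of the pathway, had the highest r with SQLE (0.973) and ACLY (0.936), and NSDHL, a later enzyme of sterol synthesis, had the highest with FDFT1 (0.966) and DHCR7 (0.971). Second were HSD17B7 for SQLE (0.926), ACAT2 for FDFT1 (0.952) and TM7SF2 for DHCR7 (0.968). Without day 20 treated replicate 3, r was 0.937 and 0.847 for ACAT2 with SQLE and ACLY, 0.923 and 0.925 for NSDHL with FDFT1 and DHCR7, and 0.85, 0.892 and 0.937 for those in second place. These held less well for FADS1, whose nearest genes DYNC1I1 (0.92), HSD17B6 (0.909) and SCD, the stearoyl-CoA desaturase (0.883), dropped to 0.588, 0.561 and 0.443 without day 20 treated replicate 3. By the mean r over the 5 genes, ACAT2 (0.925), NSDHL (0.915), FDPS (0.90), HSD17B6 (0.886) and HSD17B7 (0.868) came first, and without that library ACAT2 (0.819), FDPS (0.774), NSDHL (0.77), HSD17B7 (0.709) and INSIG1 (0.681). These values are a description over samples that share groups and libraries, and the genes with a symbol were picked by the study from these samples.

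Other genes of the same routes were read from lists of known enzymes, of which only those with an identifier in the study's gene lists could be matched, so their counts are not independent evidence of a direction. Of 21 genes of cholesterol synthesis 11 could be matched, and 10 of the 11 were called higher in mature than early CL of control dogs, against 10.1% of all genes, with a median log2 fold change of 1.09 against 0.02 over all genes. Beside SQLE, FDFT1 and DHCR7 these included TM7SF2 (1.49), HSD17B7 (1.19), NSDHL (1.15), FDPS (1.06), SC5D (1.04) and ACAT2 (1.03), while CYP51A1 had 0.88 (edgeR FDR 0.0634) and missed the threshold of P. In treated dogs 0 of 11 were called and the median was -0.37, or -0.15 without day 20 treated replicate 3.

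Of the genes around the pathway, INSIG1, which holds SREBP in the endoplasmic reticulum and is itself an SREBP target, was called higher with maturation in controls (log2 fold change 1.21), and NR1H3, the oxysterol receptor LXR alpha, was called lower (-1.64). NR1H3 was called lower in treated dogs too (-2.29, or -2.26 and still called without day 20 treated replicate 3). Among 7 matched genes of uptake, transport and storage, 4 were called higher in mature controls, where 10.1% of all genes were, among them STARD4, a cytosolic sterol carrier (1.33), NPC1, the lysosomal cholesterol exporter (0.65), and NCEH1, which hydrolyses cholesteryl esters (0.55). SOAT1, which makes cholesteryl esters (-0.67), ABCA1 (-1.16) and MYLIP (-0.45) were lower in mature controls with P under 0.05 in edgeR, without a call. In treated dogs none of these 7 was called higher, and SOAT1 was called lower (-1.73, edgeR FDR 0.0979), a call lost without day 20 treated replicate 3 (-1.75, edgeR FDR 0.157).

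The fatty acid genes were less uniform. Of 14 matched genes, ACLY and FADS1 included, 9 were called higher and 1 lower in mature controls, against 10.1% and 10.4% of all genes. ELOVL3 (1.81) and ELOVL5 (1.72), which lengthen fatty acids, FADS2, the delta-6 desaturase that acts before FADS1 (1.18), SCD (1.09), ACACA, which makes malonyl-CoA (0.74), ELOVL4 (0.70) and ME1 (0.53) were higher, and ELOVL1 was lower (-2.40). ELOVL3 was near the floor, with means of 1.02 CPM in mature and 0.282 CPM in early controls, and of 1.27 and 0.253 CPM in treated dogs. In treated dogs SCD5 was called higher (1.58) and ELOVL1 lower (-3.38), with ELOVL3 (2.30) and ELOVL5 (1.96) just outside the thresholds. Without day 20 treated replicate 3, SCD5 (1.67) and ELOVL1 (-3.17) were still called and ELOVL5 (2.19, edgeR FDR 0.0765) was called as well. Of 5 matched steroidogenic genes, CYP19A1 (2.23) and NR5A2 (0.73) were called higher in controls, and LHCGR (1.72) in treated dogs. The level of LHCGR was highest of the 26 samples in day 20 treated replicate 3 (120.5 CPM), and without that library its call was lost (1.35, edgeR FDR 0.129).

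On days 10 and 30 the cholesterol synthesis list, SQLE, FDFT1 and DHCR7 included, had a single sign within each day. On day 10, 11 of 11 genes had a positive log2 fold change, with a median of 1.03 against 0.02 over all genes and with P under 0.05 for 4 of them, SQLE, FDFT1, NSDHL (1.21, SE 0.38) and ACAT2 (1.03, SE 0.40), though 0 were called. FADS2 had 1.41 (SE 0.60) on that day. On day 30, 11 of 11 were negative, with a median of -1.16 against 0.05 over all genes, with P under 0.05 for 7 and 7 without overlap of the arms, where 2.62% and 9.11% of all genes were. HSD17B7 (-1.30), CYP51A1 (-1.31), FDPS (-1.16) and ACAT2 (-1.08) were among those with P under 0.05 beside SQLE and DHCR7, with an edgeR FDR of 0.599 for each, and 0 were called. FADS2, next to FADS1 in the route to arachidonic acid, had -1.53 (SE 0.38, DESeq2 FDR 0.0111) and STARD4 -1.41 (SE 0.41, DESeq2 FDR 0.0769).

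On day 5 the cholesterol list had 4 positive and 7 negative values with a median of -0.10. On day 20 it had 11 negative values with a median of -0.53, but 7 negative and 4 positive with a median of -0.05 without replicate 3. The difference of the stage change between treated and control dogs was negative for 11 of 11, with a median of -1.45 and with P under 0.05 for 8, and without that library again for 11 of 11, with a median of -1.16. Of the 5 matched steroidogenic genes none had P under 0.05 on day 30, with 3 positive and 2 negative values and a median of 0.18. FDX1 was lower in each treated sample (829 to 1267 CPM) than in each control (1299.8 to 1600.2 CPM), as were 9.11% of all genes. STAR, CYP11A1, FDXR, HSD3B2 and NR5A1 had no identifier, so their direction is not known here.

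**Figure D4:**
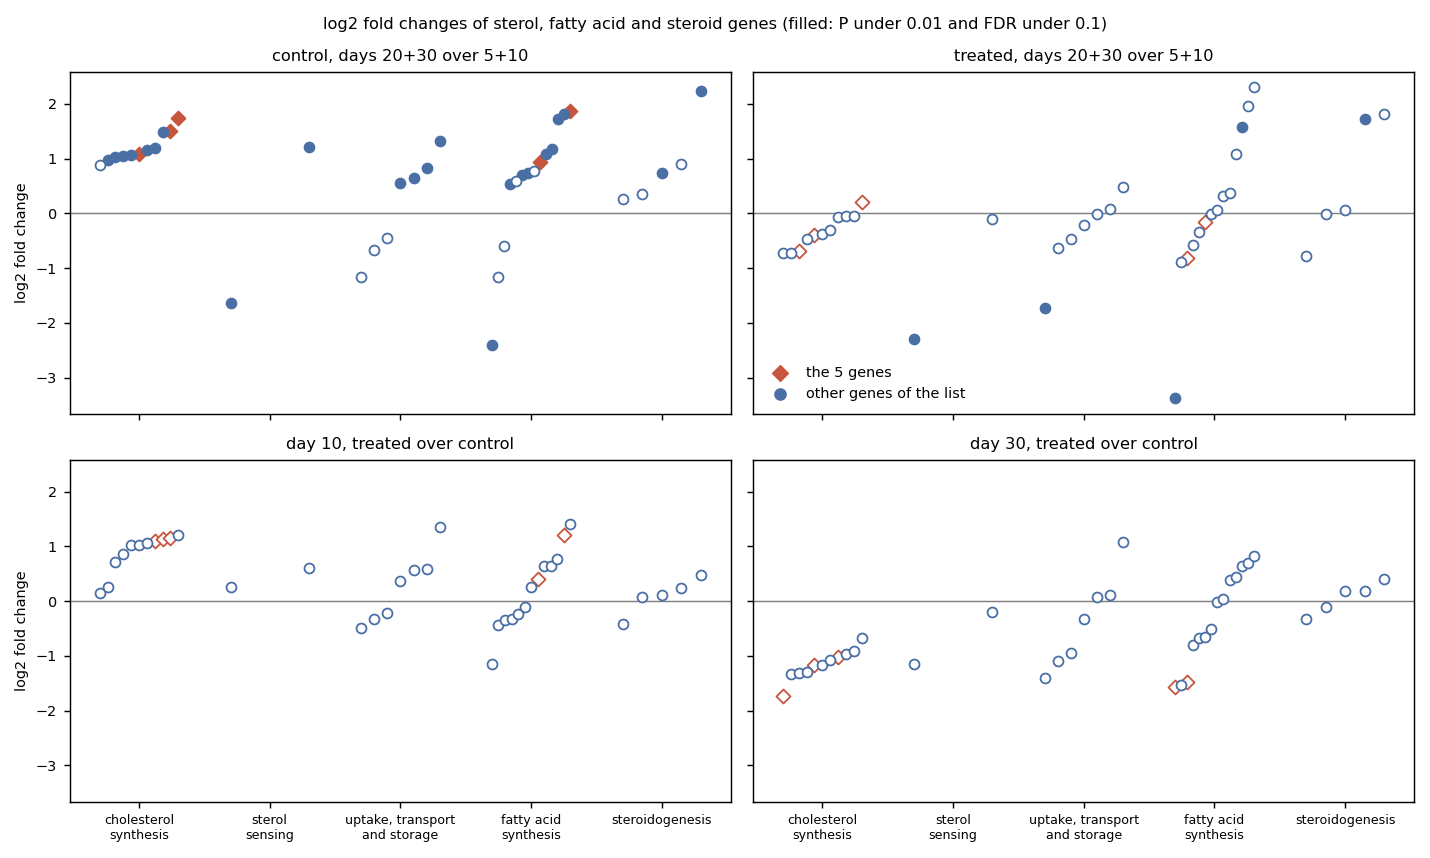
Log2 fold change (y axis) of the matched genes of 5 lists (x axis) in 4 comparisons, with diamonds for the 5 genes described, circles for the other genes of a list and filled symbols for genes called by edgeR. In the cholesterol synthesis column 10 of 11 symbols are filled for maturation in controls, the values lie above 0 on day 10 and below 0 on day 30, and none is filled on those days.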

How the data were processed

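Poly-A RNA of 26 corpora lutea was sequenced by the authors as single-end reads. STAR placed the reads on CanFam3.1, and featureCounts gave the reads of each Ensembl gene. The deposited values are raw read counts per gene. The library kit does not mark strand, so reads of overlapping antisense genes cannot be told apart. The authors left out 4 libraries before their comparisons, which were not analysed here.

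Gene symbols were available for 4355 of 19856 genes, from the gene lists of the study, and no sequences or coordinates were used. Counts were scaled by TMM. Genes that averaged 10 reads or more in any of the groups compared were tested with edgeR 4.0.16 (quasi-likelihood, R 4.3.3), with P values adjusted by Benjamini-Hochberg over all genes tested. A gene was called with P under 0.01 and FDR under 0.1. The SE was the log2 fold change divided by the square root of F, and intervals are at 95%. The study's own test was DESeq2, run here as an alternative (1.42.0) with limma voom (3.58.1). CPM is given from one TMM scaling over 14171 genes, and correlations used log2 CPM with a prior count of 2, centred on the group. The scripts were tested on simulated data. Genes named beyond the 5 were, for each list, those called, otherwise up to 3 with the smallest P, and the genes most like each of the 5, and some genes that this rule names are not reported here. The genes and lists were chosen with earlier results of these data known. Samples of a group were taken as separate dogs, since the study assigned each animal to a group, but the labels give no animal identity. The 95% intervals come from the quasi-likelihood fit, so they include the spread between samples of a group. Replicate numbers recur between groups. Deviations of same-numbered samples had a mean correlation of 0.153 on day 5, -0.389 on day 20 and -0.0739 on day 30. Samples with other numbers had -0.0414, 0.117 and 0.0239. Between days, same-numbered samples had -0.104 in controls (others 0.0259) and 0.104 in treated dogs (others -0.0122). The signs were mixed and the labels name no pairs, so no pairing was used.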

Additional observations from a re-analysis of the deposited data

Results flagged for a closer look

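Each of the 5 genes was examined in groups of 4 to 7 samples, 30 sets of gene and group in all. In 4 sets a sample's gap to its nearest neighbour, as a share of the range in log2 CPM, was above Dixon's 95% critical value. Chance gives about 1 in 20 for independent sets. These were not independent, since the genes varied together and the day 5 samples entered both a day group and a stage group. For SQLE in the day 5 treated samples, replicate 4 at 358 CPM lay above the other 3 with a gap of 0.924 of the range (n = 4). For FADS1 in the early controls, day 10 control replicate 2 at 433 CPM lay above the others with a gap of 0.617 (n = 7). Day 20 treated replicate 3 lay below the other mature treated samples for DHCR7, at 6.75 CPM with a gap of 0.626 (n = 6), and for FADS1, at 13.4 CPM with a gap of 0.769. Of 15 differences of effect between groups that were tested, 0 were called by edgeR and 1 by DESeq2, the difference of the stage change of ACLY (DESeq2 FDR 0.0785).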

How the results depend on the processing

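Of the log2 fold changes of the 5 genes, 375 of those from other settings kept their direction and side of the thresholds, 4 reversed, 3 gained and 3 lost a call. With 1 library left out 625 kept both, 18 reversed and 7 lost a call. The count of the 5 genes called was 2 in place of 5 for maturation in controls with all 26 samples fitted together, 2 in place of 0 on day 30 with DESeq2, and 1 in place of 0 for the difference of the stage change with DESeq2. Leaving out 1 library gave 4 to 5 called genes for maturation in controls and 0 in each other comparison. The reversed values were all of genes without a call. With limma voom they were -0.04 for FDFT1 in treated maturation, and 0.22 for SQLE and 0.17 for FADS1 in the difference between days 30 and 20. With 1 library left out, treated maturation ranged from -0.06 to 0.53 (FDFT1), -0.75 to 0 (DHCR7) and -0.43 to 0.08 (ACLY), day 5 from -0.81 to 0.38 (SQLE), -0.61 to 0.32 (FDFT1) and -0.27 to 0.12 (ACLY), day 20 from -1.08 to 0.40 (DHCR7), and the difference between days 30 and 20 from -1.21 to 0.06 (ACLY) and -1.02 to 0.32 (SQLE). The median r of the 10 pairs was 0.757 within days 5 and 10 and 0.667 to 0.905 with 1 library left out, lowest without day 20 treated replicate 3. The causes were not tested.

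With the replicate number as a block, DHCR7 in treated maturation was 0.12 in place of -0.40, and the median r was 0.878. The numbers mark no shared dog. The block called 1806 genes for maturation in controls, 383 for treated maturation and 4 on day 5. On day 20 the block moved the log2 fold changes to -3.82 (SQLE), -2.82 (ACLY), -2.90 (FADS1), -2.22 (FDFT1) and -2.04 (DHCR7), with an edgeR FDR of 1 for each. On day 10 no paired analysis was possible because the groups share 1 replicate number.

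Over all genes, edgeR called 2774 for maturation in controls (1754 with all 26 samples fitted) and 639 for treated maturation (1620 with DESeq2, 305 with voom, 193 at FDR 0.05, 1705 with all 26 samples fitted, 151 to 1989 with 1 library left out). On day 20 it called 14 (1479 with DESeq2, 99 with voom, 95 with RLE scaling, 109 without a filter, 129 with filterByExpr, 5 without the 10 most counted genes, 1 at FDR 0.05, 1559 with all 26 samples fitted, 0 to 1016 with 1 library left out, 1016 without treated replicate 2). DESeq2 called 100 genes on day 5, 116 on day 30, 192 for the difference of the stage change, 354 for that between days 30 and 20 and 1 for that between days 30 and 10, where edgeR called 0. Leaving out day 5 treated replicate 1 gave 52 for the stage change. The difference between days 30 and 10 was chosen after seeing the data. With 3 or 4 dogs an arm, intervals within a day spanned more than a log2 unit.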
